A study of Mus musculus with 12 samples.

Results

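Mll5-/- LSK cells from mice given N-acetyl-L-cysteine (NAC) were compared with wild-type LSK cells from mice given the same NAC. LSK cells are the bone marrow fraction that lacks lineage markers and carries Sca1 and Kit, and it holds blood stem cells and multipotent progenitors. The comparison used 6 of 12 arrays, 3 Mll5-/- NAC and 3 wild-type NAC, as their labels give genotype and treatment. It covered 22180 genes, each read by the probe set with the highest mean among those annotated to that gene alone. All mice were C57BL/6. In both NAC groups the drinking water held NAC at 1 g per liter from the mating of Mll5+/- parents, through pregnancy and for the life of the offspring, so NAC exposure before birth and after it is common to both. The other 6 arrays, 3 Mll5-/- mock and 3 wild-type mock, came from mice without NAC. Ages, and the cause of the Mll5 loss beyond the genotype name, were not given in the sources used here.

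Mll5, now named Kmt2e, encodes a chromatin-bound protein with a PHD finger that reads methylated histone H3 and a SET domain. Mice without it are known for defects of blood stem cell function and of lymphoid and myeloid cells. NAC supplies cysteine for glutathione synthesis and lowers reactive oxygen species. The series title names DNA damage, reactive oxygen, type I interferon and Bid, a pro-apoptotic BCL2 family member, as the setting of the study. The NAC arrays address how mutant and wild-type progenitors differ when both have been kept under the antioxidant.

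Values are array signals taken to be log2, so a difference of 1 is a 2-fold ratio. Array medians lay between 2.89 and 2.96, and the 6 NAC arrays correlated at 0.979 to 0.988 over all genes. Mll5-/- NAC replicate 1 stood apart, with an array weight of 0.54 against 1.10 to 1.30 for the other 5 NAC arrays, and a difference or list median that its removal moved by over 1.5 times is given without it too. Markers of LSK cells were high on all 6 NAC arrays: Kit read 8.74 to 9.18, Cd34 9.87 to 10.42 and Ptprc 8.29 to 8.51. Of the lineage markers that the sort removes, Cd3e, Cd4, Cd8a, Ms4a1, Ly6g, Klrb1c and Ncr1 stayed at or below 3.43 and Cd5 at or below 3.58, where the median gene level was 3.17, while Itgam reached 6.00 and Cd79a 5.45. Ly6a, which encodes Sca1, had no probe set of its own. Whether the 3 arrays of a group represent separate mice is not stated, and p-values then cover no more than the spread between samples, which may be technical. In bulk RNA, fewer cells of a type and less RNA per cell cannot be told apart.

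Kmt2e, the targeted gene, read 7.37, 7.78 and 7.50 in the wild-type NAC arrays and 7.02, 7.33 and 7.01 in the Mll5-/- NAC arrays. The mutant arrays all lay below the wild-type arrays, and means were 7.55 ± 0.21 and 7.12 ± 0.18 (SD, n = 3). The log2 difference of -0.43 (SE 0.17, adjusted p = 0.664) did not pass the test. Which part of the transcript the probe set covers is not known here, so this value does not check the genotype labels. The gene AI506816, which lies 2 places beyond Kmt2e in the reference gene order, read 6.32, 6.25 and 6.40 in wild type and 4.38, 4.81 and 4.37 in the mutant. Its log2 difference was -1.80 (SE 0.25, adjusted p = 0.068), with -2.53 (adjusted p = 0.00313) in the mock arrays. Srpk2, the gene next to Kmt2e and a kinase of splicing factors, read 7.14, 7.21 and 6.90 against 7.63, 7.56 and 7.54, higher in every mutant array, with a difference of 0.49 (SE 0.16, adjusted p = 0.611).

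Bid and Kit were described for their place in the study. Bid read 5.0, 4.99 and 5.12 in wild-type NAC and 4.93, 5.05 and 4.74 in Mll5-/- NAC, and the groups overlapped. Its difference was -0.13 (SE 0.14, adjusted p = 0.88) under NAC, from -0.20 to -0.05 with 1 Mll5-/- NAC array left out (replicates 2 and 3), and 0.41 in the mock arrays. The difference between these 2 values, the genotype by NAC interaction, was -0.54 with an unadjusted p of 0.0145 and an adjusted p of 0.999 by limma. Kit, the stem cell factor receptor, read 9.18, 9.03 and 8.97 in wild type and 8.74, 8.86 and 8.83 in the mutant, lower in every mutant array, with a difference of -0.25 (SE 0.11, adjusted p = 0.689).

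No gene passed the test between the NAC groups: limma called 0 of 22180 genes (0%) at an adjusted p under 0.05 and 2 (0.00902%), Blnk and AI506816, at 0.10. An unadjusted p under 0.05 was reached by 1590 genes (7.17%), where 5% would be counted with no differences, 767 of them higher in the mutant (3.46%) and 823 lower (3.71%). All 3 mutant arrays lay above all 3 wild-type arrays for 1417 genes (6.39%) and below them for 1342 (6.05%), the shares beside which the counts of list members without overlap are to be read. The difference was above 0 for 50.7% of genes and below 0 for 48.5%, and the quartiles over all genes were -0.13 and 0.13, the 1st and 99th percentiles -0.63 and 0.56. A log2 difference of at least 1 was reached by 12 genes in the higher direction (0.0541%) and 53 in the lower direction (0.239%), and among those without overlap by 8 (0.0361%) and 38 (0.171%). With 3 arrays a group the median standard error was 0.16, so the values below are differences between these arrays that did not pass the test over all genes.

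**Figure D1:**
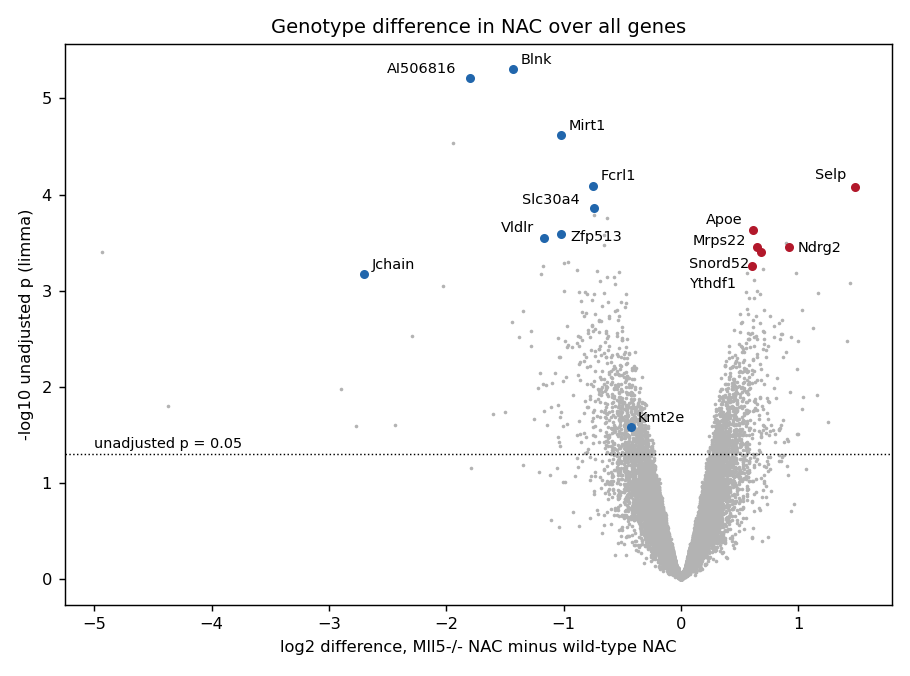
Each point is 1 of 22180 genes, with the log2 difference (Mll5-/- NAC minus wild-type NAC) on the horizontal axis and the -log10 of limma's unadjusted p on the vertical axis; coloured points are named genes and the dotted line is an unadjusted p of 0.05. Blnk and AI506816 sit highest on the lower side, Selp farthest right at 1.48, and most genes lie between -0.63 and 0.56.

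Blnk had the smallest p of all genes. It encodes the adaptor that links Syk to downstream enzymes of the B cell receptor and pre-B cell receptor. It read 5.41, 4.74 and 5.29 in the wild-type NAC arrays and 3.51, 3.82 and 3.82 in the Mll5-/- NAC arrays. The gap between the groups was larger than the range within either, and the log2 difference was -1.43 (SE 0.19, adjusted p = 0.068), a 2.69-fold ratio. In the mock arrays Blnk read 4.22, 4.42 and 4.80 in wild type and 4.31, 4.30 and 4.52 in the mutant, which overlapped. The wild-type NAC arrays were thus on average the highest and the mutant NAC arrays the lowest of the 4 groups, and the interaction was -1.33 (unadjusted p = 0.000299, adjusted p = 0.744). Without Mll5-/- NAC replicate 1 the difference was -1.33 with an adjusted p of 0.197, and over all alternatives the adjusted p ran from 0.0258 to 0.478.

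Most other genes of the B cell list stood lower as well. Of 18 measured members, 15 were lower and 3 higher in the mutant under NAC, with a median difference of -0.21 against 0.01 over all genes. Without overlap 6 were lower and 2 higher, against 6.05% and 6.39% of all genes. The largest difference on the higher side was 0.55. The B cell markers Cd22, Cd79a, Ms4a1 and Pax5 had the smallest differences of the list. In either NAC group 10 of the 18 reached the median gene level. Fcrl1, a co-receptor of the Fc receptor-like family on B cells, read 4.47, 4.34 and 4.57 in wild type and 3.73, 3.66 and 3.74 in the mutant, a difference of -0.75 (SE 0.13, adjusted p = 0.305). Pou2af1, a B cell coactivator of octamer-binding factors, read 4.68, 3.44 and 4.03 against 2.80, 2.93 and 3.11 (-1.10, SE 0.36, adjusted p = 0.617). Igll1, a surrogate light chain of the pre-B cell receptor, read 3.91, 3.43 and 3.56 against 2.53, 2.90 and 2.96 (-0.84, SE 0.40, adjusted p = 0.71). These 3 genes had mutant arrays entirely below wild type, and in the mock arrays their differences were -0.53, -0.78 and -0.71. Under NAC their wild-type arrays read 3.43 to 4.68 and their mutant arrays 2.53 to 3.74, where the median gene level was 3.17. The list median was -0.15 without Mll5-/- NAC replicate 1, with 12 members lower and 6 higher, and -0.34 without Mll5-/- NAC replicate 3.

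The promoters of Blnk and Fcrl1 are shown because these genes had the smallest p of the B cell list. Each is the 250 bases before a RefSeq start site of GRCm38.p6, at chr19:40994222-40994471 on the minus strand for Blnk and at chr3:87376137-87376386 on the plus strand for Fcrl1. Capitals mark matches, on either strand, to the E-box of E proteins (CAGGTG or CAGCTG) and to an ETS motif (GAGGAAGT).
Blnk: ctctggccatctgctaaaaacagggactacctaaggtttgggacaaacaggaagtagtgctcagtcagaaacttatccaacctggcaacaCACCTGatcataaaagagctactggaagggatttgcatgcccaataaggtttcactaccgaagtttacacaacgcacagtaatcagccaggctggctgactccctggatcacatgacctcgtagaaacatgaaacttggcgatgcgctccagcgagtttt
Fcrl1: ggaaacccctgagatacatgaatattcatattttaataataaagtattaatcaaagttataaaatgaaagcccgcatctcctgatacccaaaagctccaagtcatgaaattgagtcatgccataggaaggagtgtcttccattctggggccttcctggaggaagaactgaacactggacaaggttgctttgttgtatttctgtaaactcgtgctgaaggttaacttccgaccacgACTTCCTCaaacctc
An E-box match lay at position -160 of Blnk and an ETS match at -15 of Fcrl1, counted from the start site. An E-box was held by 53.3% of the 15 B cell list genes with a window and by 30.2% of the 16990 measured genes with a window, and ETS by 6.67% and 2.67%. A match describes letters only.

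Signalling parts of the B cell receptor form a list that shares 3 genes, Blnk, Bank1 and Btk, with the B cell list. Of its 22 adaptors and kinases 15 were lower and 7 higher (median -0.16, and -0.08 without Mll5-/- NAC replicate 1), with 5 and 2 free of overlap, against 6.05% and 6.39% of all genes. Lax1, a membrane adaptor that restrains antigen receptor signalling, read 5.69, 5.92 and 5.39 in wild type and 5.0, 4.53 and 4.98 in the mutant (-0.83, SE 0.21, adjusted p = 0.529). Pik3ap1, the adaptor that couples the receptor to PI3K, read 7.26, 6.82 and 6.57 against 5.85, 6.35 and 6.49 (-0.65, SE 0.25, adjusted p = 0.656). Blk, a Src family kinase of B cells, ran the other way at 2.91, 2.61 and 2.74 against 3.21, 3.23 and 3.06, all near the median gene level. Lat2, an adaptor of B cells and mast cells outside these lists, read 7.30, 7.02 and 7.19 against 6.24, 6.14 and 6.26, with no overlap and a difference of -0.96 (SE 0.21, adjusted p = 0.479).

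Antibody transcripts were examined after their values had been seen. Of 21 immunoglobulin genes and segments, 18 were lower in the mutant under NAC, with a median difference of -1.25. Without overlap 9 were lower and 0 higher, against 6.05% and 6.39% of all genes. Of the 21, 8 had mean levels below the median gene level. The mean signal of the 21 was 5.37, 5.71 and 4.78 in the wild-type arrays and 4.19, 3.91 and 3.13 in the mutant arrays. In the mock arrays 17 were lower, with a median of -0.26. Jchain, the joining chain of secreted IgM and IgA, read 7.50, 8.21 and 6.39 against 6.13, 4.84 and 3.04, a difference of -2.70 (SE 0.61, adjusted p = 0.479) and the largest difference among the named genes in either direction. Jchain in the mock arrays read 5.68, 5.14 and 5.73 against 2.36, 2.64 and 2.97, a difference of -2.86 (adjusted p = 0.358). All 8 plasma cell genes examined were lower under NAC, with a median of -0.16, of which 2 did not overlap, against 6.05% of all genes. Whether differing numbers of antibody-producing cells in the sorted fraction contributed to the B cell genes was not tested.

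Lymphoid priming genes, which multipotent progenitors switch on before they commit to the lymphoid lineages, stood lower in the mutant under NAC. Of 16 measured, 12 were lower and 4 higher, and the median was -0.31. Without overlap 7 were lower and 0 higher, against 6.05% and 6.39% of all genes. Dntt, the terminal transferase of antigen receptor rearrangement, read 9.89, 9.98 and 9.90 in wild type and 8.54, 9.15 and 8.97 in the mutant. The wild-type arrays lay close to each other, and the difference was -1.04 (SE 0.31, adjusted p = 0.555). Flt3, the cytokine receptor of lymphoid-primed progenitors, read 8.86, 8.65 and 8.68 against 7.26, 7.96 and 8.32 (-0.88, SE 0.24, adjusted p = 0.529). Il7r, the receptor chain for interleukin 7, read 5.41, 5.27 and 5.75 against 4.02, 4.86 and 4.52 (-1.01, SE 0.40, adjusted p = 0.664).

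These 3 genes and Lax1 were also lower on average in the mutant mock arrays, by -1.18 for Dntt, -0.60 for Flt3, -0.89 for Il7r and -0.81 for Lax1. Mll5-/- NAC replicate 1 was the lowest array for Dntt, Flt3 and Il7r. Over the list, its median deviation from the wild-type NAC mean was -0.59, against -0.20 and -0.17 for Mll5-/- NAC replicates 2 and 3, and the wild-type arrays lay between -0.04 and 0.05. Without it the list median was -0.25, with 12 members lower, and the differences were -0.86 for Dntt, -0.59 for Flt3 and -0.79 for Il7r. Cytokine and growth factor receptors, a list that shares Flt3 and Il7r, had 21 of 28 members lower (median -0.14, and -0.06 without that array). Without overlap 7 were lower and 1 higher, against 6.05% and 6.39% of all genes.

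**Figure D2:**
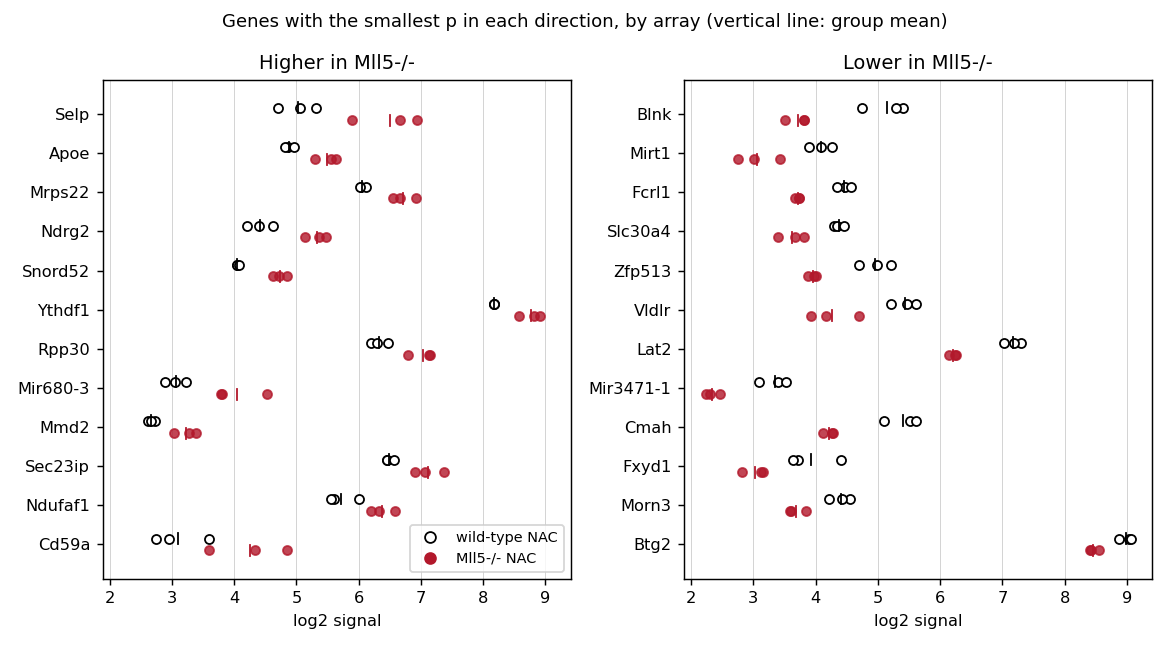
The log2 signal of the 12 genes of smallest p in each direction is plotted for each of the 6 NAC arrays, with wild-type arrays as open and Mll5-/- arrays as filled points and a vertical line at each group mean. For Blnk the wild-type arrays sit between 4.74 and 5.41 and the Mll5-/- arrays between 3.51 and 3.82, and for Selp the order is turned, with 4.71 to 5.31 against 5.90 to 6.94.

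Immediate early genes are transcription factors and phosphatases induced within minutes of a stimulus, without new protein synthesis. Of 41 lists they had the lowest median: 25 of 26 measured members were lower in the mutant under NAC, the median was -0.36, and 14 did not overlap, all lower, against 6.05% of all genes. An unadjusted p under 0.05 was reached by 11 of them, and none of the 26 passed over all genes by limma. Egr1, a zinc finger factor that keeps stem cells quiescent, read 8.36, 7.89 and 7.80 in wild type and 6.43, 7.54 and 7.12 in the mutant, a difference of -0.99 (SE 0.27, adjusted p = 0.529). Nr4a3, an orphan nuclear receptor, read 5.68, 6.27 and 6.54 against 5.39, 5.43 and 5.10 (-0.86, SE 0.28, adjusted p = 0.615). Fosl2, an AP-1 subunit, read 6.53, 7.10 and 6.55 against 5.36, 6.01 and 6.31 (-0.83, SE 0.25, adjusted p = 0.571).

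The negative regulators in the list stood lower too. Dusp5, a nuclear phosphatase of ERK, read 7.23, 7.07 and 7.14 in wild type and 5.95, 6.41 and 6.65 in the mutant (-0.81, SE 0.20, adjusted p = 0.529). Btg2, an antiproliferative gene that is also a p53 target, read 9.04, 9.07 and 8.87 against 8.41, 8.42 and 8.55 (-0.53, SE 0.12, adjusted p = 0.479). Btg2 varied little within groups, and its mock difference of -0.56 was of similar size and also free of overlap. Dusp5 differed by -0.12 in mock, with an interaction of -0.69 (unadjusted p = 0.0327, adjusted p = 0.999). Over the list the mock median was -0.32, with 24 of 26 lower. By array the median deviation was -0.58, -0.20 and -0.39 in Mll5-/- NAC replicates 1, 2 and 3, and between -0.05 and 0.05 in wild type. Without replicate 1 the median was -0.27 with 23 lower, Egr1 differed by -0.69, Fosl2 by -0.57 and Dusp5 by -0.62.

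The promoters of Dusp5 and Btg2 were chosen because their windows hold SRF or CRE matches. The presence of these matches below thus follows from the choice. They are the 250 bases before RefSeq start sites of GRCm38.p6, at chr19:53528895-53529144 on the plus strand and at chr1:134079156-134079405 on the minus strand. Capitals mark matches on either strand to SRF (CC, any 2 bases and ATATGG, or CCATAT followed by TAGG), CRE (TGACGTCA), NF-kB (GGG, any 2 bases and TTTCC) or ETS (GAGGAAGT).
Dusp5: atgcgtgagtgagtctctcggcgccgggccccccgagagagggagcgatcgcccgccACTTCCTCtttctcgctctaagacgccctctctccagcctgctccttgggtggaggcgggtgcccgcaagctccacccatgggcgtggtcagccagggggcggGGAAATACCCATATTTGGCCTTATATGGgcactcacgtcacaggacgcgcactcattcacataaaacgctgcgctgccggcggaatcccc
Btg2: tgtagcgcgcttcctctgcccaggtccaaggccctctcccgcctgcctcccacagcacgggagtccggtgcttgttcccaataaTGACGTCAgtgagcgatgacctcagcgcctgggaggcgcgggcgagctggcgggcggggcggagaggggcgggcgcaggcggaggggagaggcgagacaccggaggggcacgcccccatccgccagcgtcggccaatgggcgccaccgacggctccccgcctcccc
Dusp5 held SRF matches at -82 and -72, an NF-kB match at -90 that overlaps the SRF match at -82, and an ETS match at -193. Btg2 held a CRE match at -166. Among the 22 immediate early genes with a window, CRE was held by 13.6% and SRF by 9.09%, and among all measured genes with a window by 2.3% and 0.465%.

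NF-kB and inflammatory genes, which include cytokines and the inhibitors that NF-kB induces against itself, gave 20 of 24 lower and 4 higher, with a median of -0.33. Without overlap 9 were lower and 0 higher, against 6.05% and 6.39% of all genes. Ccl3, a chemokine that inhibits progenitor proliferation, read 9.14, 8.79 and 9.22 in wild type and 8.10, 8.65 and 8.30 in the mutant (-0.70, SE 0.20, adjusted p = 0.547). Nfkbie, an inhibitor of NF-kB, read 5.60, 6.13 and 5.59 against 5.33, 5.26 and 4.65 (-0.69, SE 0.24, adjusted p = 0.64). Tnf read 6.47, 7.35 and 6.86 against 6.46, 6.17 and 6.16 (-0.63, SE 0.31, adjusted p = 0.719), with the closest arrays nearly level and a difference of -0.40 without wild-type NAC replicate 2. All 3 mutant arrays shared this shift, with median deviations of -0.35, -0.30 and -0.23, and without Mll5-/- NAC replicate 1 the list median was -0.29. In mock 22 of the 24 were lower, with a median of -0.14. The NF-kB motif was held by 31.6% of the 19 list genes with a promoter window, against 1.67% of all measured genes with a window.

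**Figure D3:**
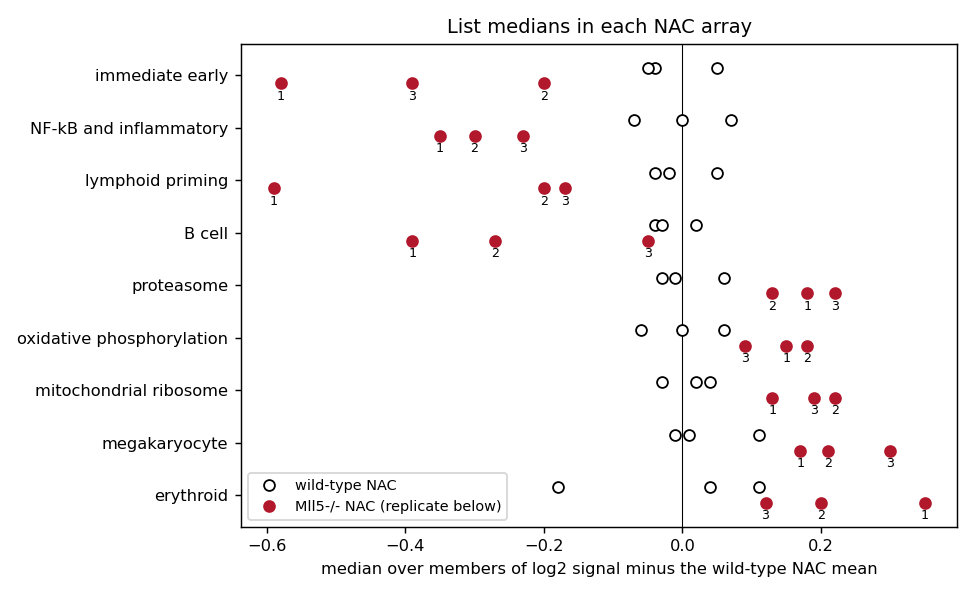
For each NAC array the median over the members of a gene list of the log2 signal minus the wild-type NAC mean is plotted, with wild-type arrays open and Mll5-/- arrays filled and numbered by replicate. The Mll5-/- arrays lie at -0.58 to -0.20 for immediate early and at -0.35 to -0.23 for NF-kB genes, and at 0.13 to 0.22 for proteasome genes.

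Interferon genes gave smaller shifts. Of 26 interferon-stimulated genes, 19 were lower and 7 higher, with a median of -0.08, and 3 lower and 1 higher did not overlap, against 6.05% and 6.39% of all genes. With 1 array left out the median ran from -0.16 (without Mll5-/- NAC replicate 2) to -0.03 (without Mll5-/- NAC replicate 1, when 14 were lower). Ifi27 had the largest difference of the stimulated genes and was higher without overlap. It read 8.02, 8.50 and 8.35 in wild type and 8.65, 8.68 and 8.83 in the mutant. Among 22 sensors, ligands and receptor chains 16 were lower and 4 higher (median -0.15). Without overlap 4 were lower and 1 higher, against 6.05% and 6.39% of all genes. Ifna4 was higher without overlap, at 4.93, 5.06 and 4.30 against 5.37, 5.14 and 5.10. Cgas was higher on average but overlapped, at 3.84, 4.23 and 3.39 against 4.28, 4.07 and 4.32. Tlr7, the endosomal sensor of single-stranded RNA, read 4.01, 4.35 and 3.88 in wild type and 3.09, 3.05 and 3.0 in the mutant, a difference of -1.03 (SE 0.39, adjusted p = 0.646), with -0.99 in mock. Ticam1, the adaptor of TLR3, read 4.39, 4.76 and 5.08 against 4.18, 4.12 and 4.21 (-0.57, SE 0.20, adjusted p = 0.64). Of the MHC class II genes, H2-Aa read 5.78, 5.93 and 4.96 against 3.97, 4.30 and 4.57 (-1.28, SE 0.36, adjusted p = 0.541). Dendritic cell and class II genes as a list had 13 of 17 lower, with a median of -0.09 (-0.14 without wild-type NAC replicate 2, -0.05 without wild-type NAC replicate 1 or 3). Of the 17, 3 were lower and 0 higher without overlap, against 6.05% and 6.39% of all genes.

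Genes of the megakaryocyte lineage stood higher in the mutant under NAC. Of 22 measured, 18 were higher and 3 lower, the median was 0.21, and 5 were higher and 2 lower without overlap, where 6.39% and 6.05% of all genes were. Selp, which encodes P-selectin, an adhesion receptor of platelets and megakaryocytes, read 5.06, 4.71 and 5.31 in wild type and 5.90, 6.94 and 6.67 in the mutant. It had the smallest p of the higher genes, with a difference of 1.48 (SE 0.26, adjusted p = 0.305), a 2.78-fold ratio. The mock difference was 1.48 as well (adjusted p = 0.294), and the interaction was 0.00. Pf4, the platelet chemokine, read 5.79, 6.13 and 5.95 against 7.91, 7.42 and 6.78 (1.41, SE 0.39, adjusted p = 0.529), and differed by 0.30 in mock, where the arrays overlapped. Treml1, a platelet granule receptor, read 4.09, 4.16 and 4.52 against 5.12, 4.67 and 5.27 (0.76, SE 0.20, adjusted p = 0.529).

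An exception was Slc35d3, a transporter needed for platelet dense granules, at 7.41, 6.76 and 7.49 in wild type against 6.40, 6.28 and 6.11 in the mutant. It did not overlap, with a difference of -0.96 (SE 0.27, adjusted p = 0.541) and -1.09 in mock. The list shift was shared by the mutant arrays, whose median deviations were 0.17, 0.21 and 0.30 against -0.01 to 0.11 in wild type. Without Mll5-/- NAC replicate 1 the list median was 0.26, Selp differed by 1.78 (adjusted p = 0.0733) and Pf4 by 1.14.

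The promoters of Selp and Pf4 are shown as those of the 2 largest differences of the megakaryocyte list. They are the 250 bases before RefSeq start sites of GRCm38.p6, at chr1:164115014-164115263 and at chr5:90772185-90772434, both on the plus strand, with E-box (CAGGTG or CAGCTG) and ETS (GAGGAAGT) matches on either strand in capitals.
Selp: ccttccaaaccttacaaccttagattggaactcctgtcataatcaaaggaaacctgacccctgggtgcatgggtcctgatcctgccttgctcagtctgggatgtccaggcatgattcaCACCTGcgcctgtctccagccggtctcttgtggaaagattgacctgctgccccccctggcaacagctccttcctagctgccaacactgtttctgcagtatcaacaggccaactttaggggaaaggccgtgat
Pf4: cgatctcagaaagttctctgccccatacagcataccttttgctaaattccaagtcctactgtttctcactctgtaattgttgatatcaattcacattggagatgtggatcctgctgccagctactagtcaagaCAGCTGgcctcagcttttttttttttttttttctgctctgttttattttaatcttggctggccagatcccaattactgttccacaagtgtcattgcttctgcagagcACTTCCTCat
Selp held an E-box match at -132, and Pf4 an E-box match at -117 and an ETS match at -10. Neither window held a GATA motif (AGATAA or TGATAA), which 31.2% of the 16 megakaryocyte genes with a window and 16.5% of all measured genes with a window held.

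Erythroid genes were higher for 10 of 14, with a median of 0.17, and 2 did not overlap, both higher, against 6.39% of all genes. The median was 0.27 without Mll5-/- NAC replicate 3 or without wild-type NAC replicate 2, and 0.10 with array weights. Icam4, an adhesion molecule of red cell precursors, read 4.89, 5.06 and 4.95 in wild type and 6.01, 5.56 and 6.41 in the mutant (1.03, SE 0.26, adjusted p = 0.529), with 0.00 in mock. Car1, carbonic anhydrase 1, read 7.57, 7.48 and 7.38 against 9.14, 8.04 and 7.97 (0.91, SE 0.48, adjusted p = 0.73), and 0.53 without Mll5-/- NAC replicate 1, its highest array. Stem cell genes were higher for 19 of 26, with a median of 0.12 (0.20 without wild-type NAC replicate 2). Without overlap 1 was higher and 1 lower, against 6.39% and 6.05% of all genes. The higher one was Fgd5, a marker of long-term stem cells, at 3.29, 3.63 and 3.32 against 3.94, 4.13 and 3.72 (0.52, SE 0.17, adjusted p = 0.617). Slamf1, the stem cell marker CD150, read 2.78, 3.05 and 3.25 against 3.03, 3.56 and 4.23 and overlapped.

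Myeloid lists had medians near that of all genes, with single genes farther off. Granulocyte and monocyte progenitor genes gave 13 of 19 lower with a median of -0.06, from -0.14 without Mll5-/- NAC replicate 3 to -0.01 without Mll5-/- NAC replicate 1. Of the 19, 1 was higher and 1 lower without overlap, against 6.39% and 6.05% of all genes. Mature neutrophil granule genes gave 10 of 15 lower with a median of -0.06, or -0.17 without Mll5-/- NAC replicate 2. Of the 15, 2 were lower and 0 higher without overlap, against 6.05% and 6.39% of all genes. S100a9, a calcium-binding protein of neutrophils and monocytes, read 6.89, 6.71 and 6.96 in wild type and 5.41, 5.65 and 6.47 in the mutant (-1.01, SE 0.33, adjusted p = 0.617). S100a8, its partner, read 9.31, 9.35 and 9.82 against 8.55, 8.90 and 9.54 and overlapped. In mock S100a9 differed by -1.38 and S100a8 by -1.61, both without overlap. Cd33, a sialic acid receptor of myeloid cells, read 6.39, 6.24 and 6.68 against 4.19, 5.46 and 5.62, with no overlap. Its difference was -1.35 (SE 0.34, adjusted p = 0.529), or -0.90 without Mll5-/- NAC replicate 1, and -0.25 in mock. Csf1r, the receptor of macrophage colony-stimulating factor, read 6.14, 5.77 and 5.76 against 5.09, 5.60 and 5.73 (-0.42, SE 0.33, adjusted p = 0.83), and -0.23 without Mll5-/- NAC replicate 1.

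Proteasome genes, of the lists with a median above that of all genes, had the fewest members on the lower side. Of 25 subunits, 24 were higher and 1 lower, and the median was 0.16. Without overlap 9 were higher and 0 lower, against 6.39% and 6.05% of all genes. Psma2, a subunit of the outer ring, read 7.95, 7.89 and 8.24 in wild type and 8.53, 8.48 and 8.39 in the mutant (0.44, SE 0.14, adjusted p = 0.615). Psma1, of the same ring, read 7.85, 8.21 and 8.05 against 8.85, 8.23 and 8.26 (0.41, SE 0.18, adjusted p = 0.679), and 0.21 without Mll5-/- NAC replicate 1, its highest array. The differences ran from -0.02 to 0.44 over the list, with a mock median of 0.13, and without Mll5-/- NAC replicate 1 the median was 0.17.

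Nuclear genes of mitochondrial energy production stood slightly higher. Of 28 oxidative phosphorylation genes 19 were higher and 9 lower, with a median of 0.18, and 10 were higher and 1 lower without overlap, against 6.39% and 6.05% of all genes. Uqcrb, a subunit of complex III, read 7.99, 8.41 and 8.48 in wild type and 9.14, 8.69 and 8.68 in the mutant (0.54, SE 0.16, adjusted p = 0.555). Cox5b, a subunit of complex IV, read 8.58, 9.52 and 8.86 against 9.66, 9.58 and 9.54 (0.61, SE 0.22, adjusted p = 0.64), and 0.40 without wild-type NAC replicate 1, its lowest array. The kept probe set of Cox7b, also of complex IV, gave 0.58 (0.22 without wild-type NAC replicate 1), but another probe set of Cox7b gave -0.56, so its direction is uncertain. Of 29 mitochondrial ribosome genes 23 were higher, with a median of 0.12, or 0.06 without Mll5-/- NAC replicate 2 and 0.19 without Mll5-/- NAC replicate 1. Mrps22, of the small mitochondrial subunit, read 6.03, 6.12 and 6.02 against 6.92, 6.55 and 6.66 (0.65, SE 0.14, adjusted p = 0.457). Ndufaf1, an assembly factor of complex I, read 5.61, 6.00 and 5.56 against 6.59, 6.20 and 6.32 (0.65, SE 0.15, adjusted p = 0.495), with 0.58 in mock.

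**Figure D4:**
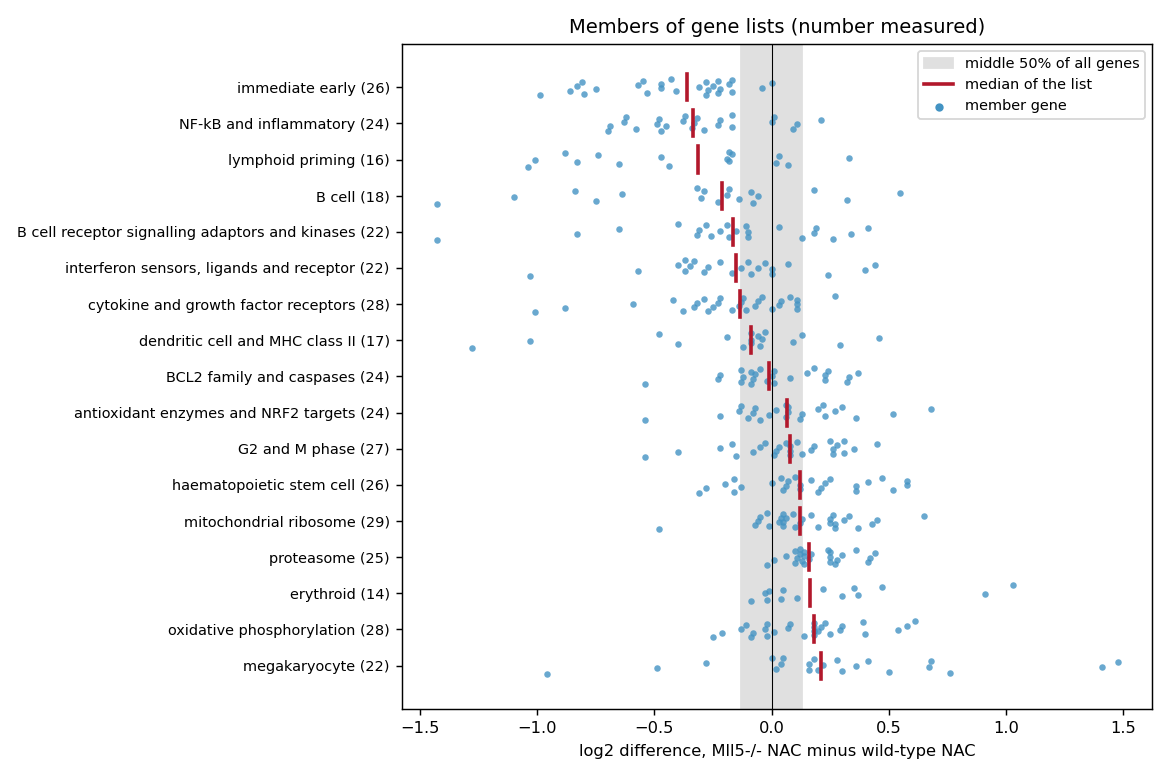
Each point is a member gene of 1 of the gene lists named on the left, placed by its log2 difference (Mll5-/- NAC minus wild-type NAC); the red bar is the list median and the grey band the middle 50% of all genes, -0.13 to 0.13. Immediate early genes have the lowest median at -0.36 and megakaryocyte genes the highest at 0.21, against 0.01 over all genes.

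Lists tied to the antioxidant treatment had medians near that of all genes. Antioxidant enzymes and NRF2 targets had 15 of 24 higher with a median of 0.06. Of the 24, 4 were higher and 1 lower without overlap, against 6.39% and 6.05% of all genes. Nqo1 had the largest difference of the list, 0.68, or 0.45 without wild-type NAC replicate 2. Prdx4, a peroxiredoxin of the secretory pathway, read 5.05, 5.23 and 5.01 in wild type and 5.56, 5.59 and 5.71 in the mutant (0.52, SE 0.20, adjusted p = 0.646). Gsr, glutathione reductase, read 8.18, 8.08 and 8.15 against 7.40, 7.73 and 7.66 (-0.54, SE 0.26, adjusted p = 0.709). Mgst2, a microsomal glutathione transferase, read 6.54, 6.34 and 6.63 against 5.78, 5.79 and 6.26 (-0.56, SE 0.21, adjusted p = 0.646). Glutathione and cysteine supply genes, 4 of which are also in the antioxidant list, had 15 of 23 lower and a median of -0.07 (-0.01 without Mll5-/- NAC replicate 1 or wild-type NAC replicate 1). Of the 23, 3 were lower and 0 higher without overlap, against 6.05% and 6.39% of all genes. Cybb, the catalytic subunit of the phagocyte NADPH oxidase, read 5.12, 5.16 and 5.19 against 3.86, 4.47 and 4.10 (-1.01, SE 0.56, adjusted p = 0.745), and its list had 8 of 11 lower, with a median of -0.14, or -0.04 without Mll5-/- NAC replicate 1.

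BCL2 family and caspase genes split evenly, 12 higher and 12 lower, with a median of -0.01 (0.02 without Mll5-/- NAC replicate 1). Of the 24, 3 were higher and 2 lower without overlap, against 6.39% and 6.05% of all genes. Bcl2l11, which encodes the BH3-only protein Bim, read 6.50, 6.54 and 6.18 in wild type and 5.64, 5.93 and 6.02 in the mutant (-0.54, SE 0.20, adjusted p = 0.64), with -0.52 in mock. Mtch2, the mitochondrial receptor of truncated Bid, read 7.21, 7.32 and 7.47 against 7.59, 7.68 and 7.72 (0.33, SE 0.14, adjusted p = 0.678). Cycs, cytochrome c, read 9.38, 9.63 and 9.62 against 9.91, 9.91 and 9.76 (0.32, SE 0.12, adjusted p = 0.659). Other probe sets of Cycs gave 0.04 to 1.05. Bcl2l11 was lower and Mtch2 and Cycs higher in every mutant array, and none of the 3 passed the test. DNA damage response genes had a median of -0.03 and p53 targets 0.01, S phase genes 0.04 and G2 and M phase genes 0.08, and H3K4 methyltransferases and partners -0.03 with 13 of 22 lower. Without Mll5-/- NAC replicate 1 the medians were -0.00 for DNA damage response genes, -0.03 for p53 targets and 0.07 for S phase genes.

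The 12 smallest p per direction held further genes without overlap, of which Apoe belongs to the cholesterol and lipoprotein list and the other 4 described here to none. Vldlr, the very low density lipoprotein receptor, read 5.62, 5.21 and 5.47 in wild type and 3.92, 4.17 and 4.70 in the mutant (-1.17, SE 0.24, adjusted p = 0.457). Cmah, which makes N-glycolylneuraminic acid, read 5.51, 5.61 and 5.09 against 4.12, 4.28 and 4.27 (-1.18, SE 0.26, adjusted p = 0.479). Apoe, the lipid carrier, read 4.87, 4.96 and 4.81 against 5.55, 5.29 and 5.64 (0.61, SE 0.12, adjusted p = 0.457). In the mock arrays these 3 differed in the same direction, by -0.67, -0.99 and 0.46. Ythdf1, a reader of methylated adenosine in RNA, read 8.17 on all 3 wild-type arrays and 8.91, 8.82 and 8.58 in the mutant (0.60, SE 0.13, adjusted p = 0.479). Another probe set of Ythdf1 gave 0.28 (SE 0.12). In mock the kept probe set differed by 0.21 and the arrays overlapped. Rpp30, a subunit of RNase P, read 6.20, 6.30 and 6.47 against 7.15, 7.13 and 6.80 (0.70, SE 0.16, adjusted p = 0.479).

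The remaining genes with the smallest p are given by range. On the higher side they were Ndrg2, Snord52, Mir680-3, Mmd2, Sec23ip and Cd59a, with differences from 0.56 to 1.17, of which Cd59a had 1 mutant array level with a wild-type array. On the lower side they were Mirt1, Slc30a4, Zfp513, Mir3471-1, Fxyd1 and Morn3, with differences from -1.02 to -0.72. Adjusted p over the 12 higher genes ran from 0.305 to 0.495 and over the 12 lower genes from 0.068 to 0.479. Among the largest differences without overlap were also Morn4 (1.12), Zdhhc2 (1.04), a palmitoyltransferase, and Mir5124a (1.03) on the higher side, and Mir103-2 (-1.50), Mir1927 (-1.44) and Vmn1r127 (-1.28, and -0.85 without Mll5-/- NAC replicate 1) on the lower side.

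The mock arrays, which enter no NAC group mean, give the same genotype contrast without NAC. They share the fitted spread with the NAC comparison, so the choice of genes by smallest p was not independent of them. Of the 1417 genes higher without overlap under NAC, 65.1% were also higher in mock, against 50.2% of all genes, and of the 1342 lower genes 63.1% were also lower, against 49.1%. No overlap in the same direction in both was found for 172 (12.1%) and 126 (9.39%), and no overlap in opposite directions for 48 (3.39%) and 43 (3.2%). All 8 higher genes and 29 of the 38 lower genes with a difference of at least 1 and no overlap under NAC had the same direction in mock (100% and 76.3%). Among the 12 genes of smallest p in each direction, 8 and 8 had the same direction in mock, 4 and 5 of them without overlap there, as did 5.94% of all genes on the higher and 5.46% on the lower side of mock. The mock comparison called 2 genes by limma (0.00902%), AI506816, lower in the mutant, and 1190005I06Rik, an uncharacterised gene outside the naming rule, higher in the mutant by 1.38 (SE 0.16, adjusted p = 0.0117) and overlapping under NAC.

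Several genes with a clear gap under NAC had mock values close together. An interaction with an unadjusted p under 0.05 was found for 5 of the 12 higher and 6 of the 12 lower genes of smallest p. These genes were chosen by their NAC difference, which is a term of the interaction. A larger share among them than among all genes follows in part from that choice. Over all 22180 genes it was found for 934 (4.21%), and limma called 0 at an adjusted p under 0.05 (0%, lowest adjusted p 0.243). Slc30a4, a zinc transporter, read 4.30, 4.34 and 4.46 in wild type and 3.66, 3.39 and 3.82 in the mutant under NAC (-0.74, SE 0.14), with 0.05 in mock and an interaction of -0.80 (unadjusted p = 0.0014, adjusted p = 0.885). Zfp513, a zinc finger factor, read 4.98, 4.70 and 5.21 against 3.87, 3.97 and 4.0 (-1.02, SE 0.20), with 0.16 in mock and an interaction of -1.18 (unadjusted p = 0.0013, adjusted p = 0.885). Vegfa, the endothelial growth factor, read 7.14, 7.32 and 7.42 against 6.14, 6.64 and 6.47 (-0.88, SE 0.28, adjusted p = 0.607), with 0.02 in mock and an interaction of -0.89 (adjusted p = 0.999). None of these passed the test of the difference between NAC and mock.

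**Figure D5:**
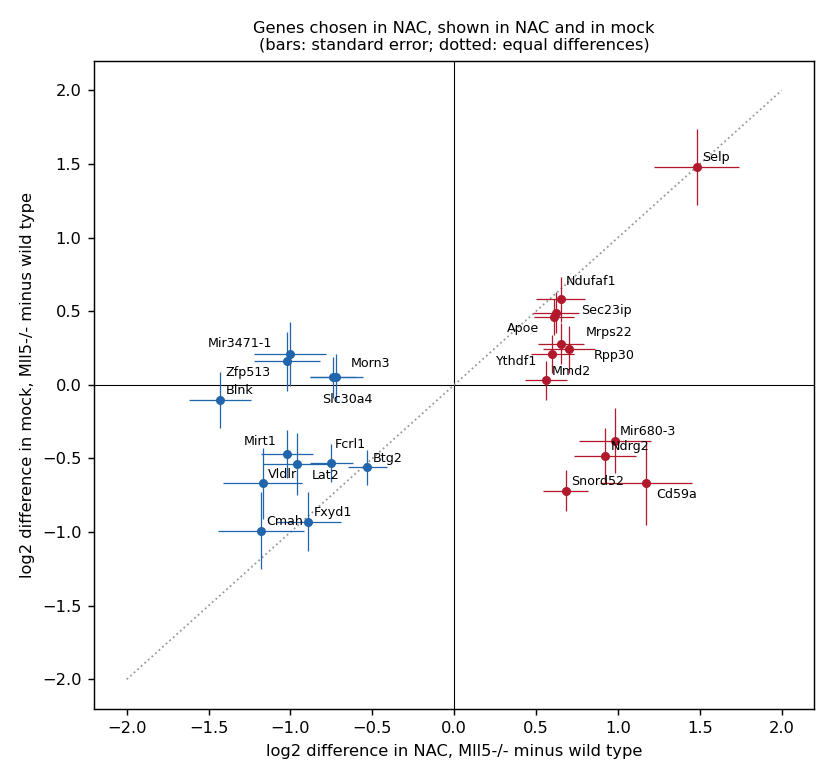
The 24 genes of smallest p under NAC are placed by their log2 difference (Mll5-/- minus wild type) in NAC, horizontal, and in mock, vertical, with bars of 1 standard error; the dotted line marks equal differences. Selp lies on the line at 1.48 in both, Blnk at -1.43 in NAC and -0.10 in mock, and the genes were chosen for their NAC values.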

How the data were processed

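Total RNA of sorted LSK cells was labelled with biotin and hybridised to 12 arrays, 3 for each of 4 groups, per the labels' protocols. The authors deposited log2 signals, and the submitters' processing notes name Affymetrix Power Tools and RMA, with no version. RMA subtracts background, equalises array distributions and fits 1 value per probe set, which draws small differences towards 0. No source states the log base, and log2 was inferred because values run from 0.74 to 13.23. The array holds 41345 probe sets, of which 23521 carry 1 gene symbol, 1814 several, and 23477 match the RefSeq mouse table (GRCm38.p6), with 0 symbols updated. The brightest probe set over the 12 arrays stood for each of 22180 symbols, 1082 of which had several, and dim genes were kept. Since the annotation names no build, the reference gave only names, gene order and promoter windows.

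Group means over the 12 arrays were fitted in limma 3.58.1 (lmFit and eBayes, R 4.3.3), and p-values were adjusted over genes by Benjamini-Hochberg, with 0.05 as the threshold. The procedure was tested on simulated data. Named were Kmt2e, Bid, Kit, AI506816 and Srpk2; per direction the 12 smallest p and the 6 largest differences without overlap, at or above the median gene level of 3.17 and leaving out predicted genes and antigen receptor segments; and up to 4 members per list with the largest difference. The members, the 41 lists and this rule were chosen with earlier results of these data known. Antibody and plasma cell genes, and S100a8 and S100a9, were picked after their values were seen where they lie outside the rule. Lists are described by counts and medians, with no list test. Promoters were searched for exact letters on both strands in the 250 bases before each RefSeq start site, and a gene with several start sites counted if any window matched.

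NAC arrays of the same number did not deviate together (correlations of 0.05, 0.05 and 0.03), and the labels name no pairing. Such correlations cannot exclude that samples were paired. Other settings were array weights, a filter at the median level, probe sets averaged or all kept, arrays centred or quantile normalized anew, a trended and robust prior, only the compared groups, a replicate block, an adjusted p under 0.10, and each array left out in turn. Leaving out both arrays that stand apart was added after seeing the data. Arrays give no read depth, and their number limits the precision. Plots were made in matplotlib 3.10.9 under Python 3.11.15.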

Additional observations from a re-analysis of the deposited data

Results flagged for a closer look

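Ndrg2 and Snord52, a small nucleolar RNA, had opposite directions without overlap under NAC and in mock. Ndrg2 read 4.39, 4.63 and 4.20 in wild-type NAC and 5.36, 5.48 and 5.14 in Mll5-/- NAC, and 5.02, 5.23 and 4.93 in wild-type mock against 4.80, 4.12 and 4.83 in Mll5-/- mock. Its genotype by NAC interaction was 1.40 (SE 0.27), with an unadjusted p of 0.000188 and an adjusted p of 0.744 by limma. Snord52 read 4.04, 4.04 and 4.07 in wild-type NAC and 4.62, 4.72 and 4.84 in Mll5-/- NAC, and 4.41, 4.44 and 4.33 in wild-type mock against 3.84, 3.33 and 3.85 in Mll5-/- mock. Its interaction was 1.40 (SE 0.20), with an unadjusted p of 1.09e-05 and an adjusted p of 0.243, the lowest over all genes.

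Probe sets without a single annotated gene lie outside the comparison of genes. In a fit over all 41345 probe sets 5 of them passed between the NAC groups by limma, and their genes are not named here. Probe set 17284402 read 6.83, 9.42 and 8.30 in wild-type NAC and 2.98, 2.56 and 2.50 in Mll5-/- NAC, a difference of -5.50 (SE 0.52, adjusted p = 0.00933), and 2.12 to 3.12 in the 6 mock arrays. Probe set 17459392 read 7.03, 6.62 and 5.34 in wild-type NAC and 1.95, 1.85 and 2.44 in Mll5-/- NAC (-4.25, SE 0.35, adjusted p = 0.00361), and 1.78 to 2.46 in mock, with an interaction of -4.60 (adjusted p = 0.0954). Both were high in the wild-type NAC arrays and low in the other 9.

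Probe set 17207715 gave -2.18 (SE 0.24, adjusted p = 0.02), from 3.91, 4.26 and 4.40 in wild-type NAC to 1.79, 2.40 and 1.84 in Mll5-/- NAC, with 0.07 in mock. Probe set 17345319 gave -1.47 (SE 0.15, adjusted p = 0.0135), from 4.68, 4.84 and 4.55 to 3.04, 3.38 and 3.23, with 0.07 in mock. Probe set 17547865 ran the other way and followed the genotype label on all 12 arrays. It read 3.79, 2.90 and 2.99 in wild-type NAC and 6.18, 6.11 and 6.73 in Mll5-/- NAC, a difference of 3.11 (SE 0.26, adjusted p = 0.00361), and 2.77, 2.91 and 3.31 against 6.61, 6.50 and 6.26 in mock, a difference of 3.46 (adjusted p = 0.00246).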

How the results depend on the processing

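The count of genes called between the NAC groups was 0, and it stayed 0 with the replicate block, with probe sets averaged per gene, with arrays centred or quantile normalized anew, with a trended and robust prior, and without both arrays that stand apart. It was 2 at an adjusted p under 0.10 and with the filter at the median level (AI506816 and Blnk both times), 4 with array weights (AI506816, Blnk, Igkj1 and Mirt1), 5 over all probe sets and 1 with only the compared groups (AI506816). Leaving out 1 array gave 0 to 3: AI506816, Blnk and Igkj1 without wild-type mock replicate 3, and 1 gene each without Mll5-/- mock replicate 3 (AI506816), Mll5-/- NAC replicate 1 (Mirt1), wild-type NAC replicate 2 (Blnk) and wild-type NAC replicate 3 (Igkv6-23). The cause of these moves was not tested beyond the fewer genes or arrays that each setting uses.

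In mock the count was 2, and 1 with only the compared groups (Jchain), 1 with the replicate block (AI506816), 0 without both arrays that stand apart and 1 to 4 with 1 array left out. For the interaction it was 0, and 0 to 2 with 1 array left out, the 2 being without wild-type NAC replicate 3. The replicate block changed no other call. The settings were run for 97 genes, among them those the text names with a NAC difference, and 0 of them changed sign; the other genes of the naming rule were not run. List medians kept their sign for the lists whose groups the text describes as lower or higher. The adhesion and homing median went from 0.08 to -0.01 with the filter and without wild-type NAC replicate 2, and ran from -0.02 (without Mll5-/- NAC replicate 2 or wild-type NAC replicate 3) to 0.10 with 1 array left out. The MHC class I median went from -0.15 to 0.01 without both arrays that stand apart, and ran from -0.17 to 0.01 with 1 array left out, the latter without Mll5-/- NAC replicate 1. With 3 arrays a group and a median standard error of 0.16, differences near the quartiles of all genes were not detectable.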
